A study of Homo sapiens with 12 samples.

Results

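CD44, a cell surface receptor for hyaluronan, is 1 of 11963 genes that these arrays read by a probe set of their own. It was read by 8 probe sets of 22277, all those whose only gene in the platform annotation is CD44. Each probe set was followed apart, because the gene was chosen by measured values: its probe sets had differed between the eIF4E and IgG precipitates in opposite directions. The difference between antibodies is therefore given below as a description, with no test. MDA-MB-231 is an established, mesenchymal human breast cancer line without oestrogen receptor. The 4 groups of 3 arrays each held RNA from its lysates: eIF4E precipitates of irradiated cells, eIF4E precipitates of untreated cells, IgG precipitates of irradiated cells and IgG precipitates of untreated cells. The irradiated cells were given 2 Gy with an X-ray source and lysed 6 h afterwards. The control IgG precipitate shows RNA that comes down without the eIF4E antibody, and no array of the RNA that went into the precipitations was analysed here.

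The eukaryotic initiation factor eIF4E binds the cap at the 5′ end of messenger RNA and brings it to the ribosome, so RNA that comes down with it is taken as a measure of capped RNA held by the factor. The CD44 protein binds hyaluronan outside the cell, and inside it is tied to actin through ezrin, radixin and moesin. Its messenger RNA is spliced into a standard form and into variant forms that carry extra exons, its outer part is shed by metalloproteinases, and a CD44-high, CD24-low surface pattern is widely used to mark a stem-like state in breast cancer cells. CD44 is known to be abundant in MDA-MB-231 cells.

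Not every probe set reads every transcript of a gene. The RefSeq table lists 44 transcripts for CD44. By the type of the sequence that the platform annotation lists for each, 204489_s_at stands for a RefSeq transcript of CD44, 204490_s_at, 209835_x_at and 210916_s_at for GenBank messenger RNA entries, and 212063_at, 216056_at and 217523_at for expressed sequence tags, which are short single reads of cloned RNA. The source of 212014_x_at was not listed. A name ending in _s_at marks probes shared by several transcripts, and one ending in _x_at (209835_x_at and 212014_x_at) marks probes that may also bind other sequences, so both _x_at values are less certain. The sources used here do not give the probes' sequences or which exon or end of the transcript they lie in, so no sequence is shown.

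Signals are MAS5 values on a linear scale, set by the authors so that the trimmed mean of each array is 500.2, and a signal therefore gives a level relative to the rest of the same array. Levels of different probe sets depend on their probes and are not set against each other. Of the 8 CD44 probe sets, 6 had a mean log2 signal at or above the 40th percentile of all 22215 probe sets that are not controls, which is a signal of 34.5, and 212063_at stood at the 97.5th percentile. The exceptions were 217523_at and 216056_at, at percentiles 10.9 and 13.2.

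Of the 6 bright probe sets, 5 had lower means in the eIF4E than in the IgG precipitates, and 210916_s_at had a higher one. The probe set 212063_at read 3043, 3149 and 2926 in eIF4E precipitates of irradiated cells and 2824, 3232 and 2710.1 in eIF4E precipitates of untreated cells, against 13339.6, 12639 and 11470.0 in IgG precipitates of irradiated cells and 11935, 13452 and 13479 in IgG precipitates of untreated cells. Its 6 eIF4E arrays lay far below its 6 IgG arrays, with a spread within groups that was small beside this distance. The difference of eIF4E minus IgG was -2.09 ± 0.088 on the log2(signal + 16) scale (SE of the fit, 6 arrays against 6), a 4.25-fold lower level. It was -2.03 ± 0.12 in irradiated and -2.14 ± 0.12 in untreated cells.

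The probe set 204489_s_at read 2648, 3078 and 3022 in eIF4E precipitates of irradiated cells and 2741, 2909.7 and 2970.1 in those of untreated cells, against 7806, 5719 and 4609 in IgG precipitates of irradiated cells and 6119, 5428 and 6011 in those of untreated cells. The antibodies did not overlap, and the IgG arrays of irradiated cells were spread most widely. Its difference was -1.02 ± 0.11 (log2, SE), the same to 2 decimals in irradiated (-1.02 ± 0.16) and in untreated cells (-1.02 ± 0.16).

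The probe set 204490_s_at read 1741, 1498 and 1610.3 in eIF4E precipitates of irradiated cells and 1659.5, 1787 and 1339 in those of untreated cells, against 3629, 2963 and 2573 in IgG precipitates of irradiated cells and 2456, 2884 and 2327 in those of untreated cells. All eIF4E arrays were again below all IgG arrays, by a smaller margin. The difference was -0.79 ± 0.11 (log2, SE), with -0.90 ± 0.15 in irradiated and -0.68 ± 0.15 in untreated cells.

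Both _x_at probe sets were lower by less. For 209835_x_at the signals were 2760.1, 2981 and 2759 in eIF4E precipitates of irradiated cells and 2243, 2541 and 2456 in those of untreated cells, against 3791, 3640.4 and 3123 in IgG precipitates of irradiated cells and 3048, 3105 and 2748 in those of untreated cells. Within irradiated cells and within untreated cells the antibodies did not overlap, but over all arrays they did, since the untreated IgG arrays reached down to 2748 and the irradiated eIF4E arrays up to 2981. The difference was -0.30 ± 0.083 (log2, SE), with -0.31 ± 0.12 in irradiated and -0.30 ± 0.12 in untreated cells. For 212014_x_at the signals were 2033, 2693 and 2317 in eIF4E precipitates of irradiated cells and 1939.9, 2467 and 2064 in those of untreated cells, against 3767, 3062 and 2522 in IgG precipitates of irradiated cells and 2840.2, 2684 and 2581 in those of untreated cells. Here the antibodies overlapped in irradiated cells and not in untreated ones, and the difference was -0.36 ± 0.11 (log2, SE), with -0.40 ± 0.15 in irradiated and -0.33 ± 0.15 in untreated cells.

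The opposite sign came from 1 probe set, 210916_s_at. It read 816, 624 and 659 in eIF4E precipitates of irradiated cells and 664, 744 and 651 in those of untreated cells, against 653, 716 and 495 in IgG precipitates of irradiated cells and 455, 257 and 589 in those of untreated cells. The arrays did not overlap in untreated cells, where the difference was 0.72 ± 0.23 (log2, SE), and overlapped in irradiated cells, where it was 0.17 ± 0.23. The mean over both was 0.45 ± 0.17, and it was 0.28 without the lowest array, replicate 2 of the IgG precipitates of untreated cells.

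The 2 dim probe sets carried no readable direction. For 217523_at the signals were 1.98, 1.37 and 6.00 in eIF4E precipitates of irradiated cells and 2.99, 2.05 and 2.35 in those of untreated cells, against 3.18, 27.5 and 44.9 in IgG precipitates of irradiated cells and 36.6, 2.35 and 4.04 in those of untreated cells. For 216056_at they were 2.04, 3.81 and 24.9 in eIF4E precipitates of irradiated cells and 2.64, 3.50 and 20.0 in those of untreated cells, against 26.7, 16.1 and 0.824 in IgG precipitates of irradiated cells and 21.0, 3.02 and 6.18 in those of untreated cells. Values of both jumped between replicates, and the antibodies overlapped in both. Their differences were -0.75 ± 0.30 for 217523_at and -0.15 ± 0.30 for 216056_at (log2, SE). Markers of leukocytes, liver, neuron or muscle and endothelium, which this line should lack, had a median signal over 13 genes of 11.4 to 29.8 on the eIF4E arrays and 6.02 to 22.0 on the IgG arrays, and most signals of 217523_at and 216056_at lay within or below these ranges. Single markers reached higher, with a highest gene median of 92.9 and a highest signal of 128, above the 34.5 that marks bright probe sets here. The lowest signal of a bright CD44 probe set was 257.

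**Figure D1:**
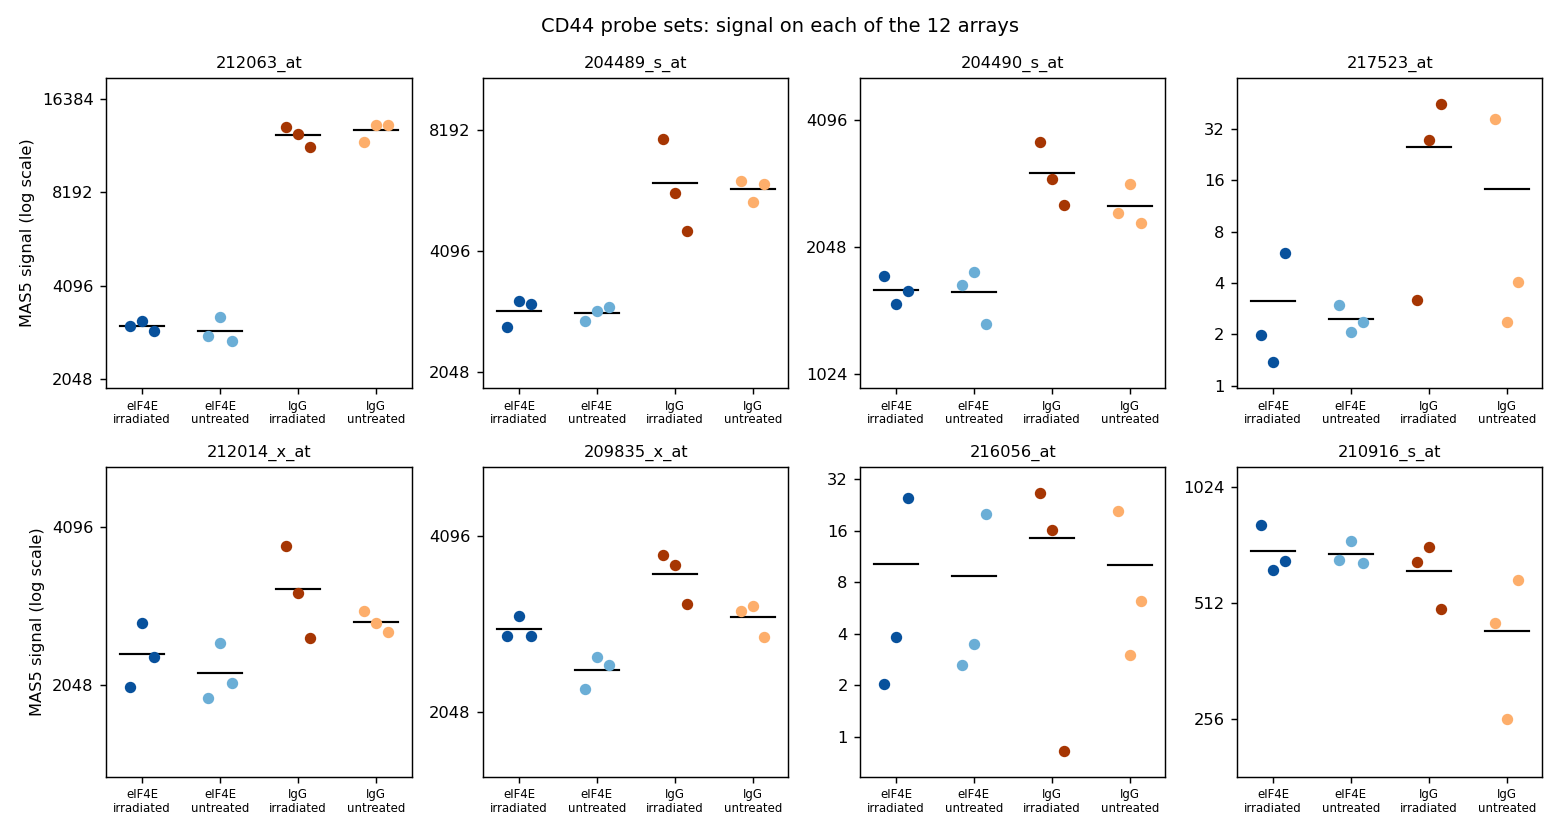
Signal of each CD44 probe set on each of the 12 arrays (MAS5 signal, log axis, with its own range in each panel). Points are arrays in replicate order and black bars are group means; eIF4E groups lie below IgG groups for 212063_at, 204489_s_at and 204490_s_at, while 210916_s_at has its lowest array, 257, among the IgG precipitates of untreated cells.

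Counted over all arrays, 3 of the 8 probe sets had all eIF4E arrays below all IgG arrays and 0 had them all above. Of all 22215 probe sets, 14.9% were apart in the lower direction and 11.9% in the higher. Within untreated cells, 5 were apart lower and 1 higher, beside 25.8% lower and 17.8% higher among all probe sets. Within irradiated cells, 4 were apart lower and 0 higher, beside 21.8% and 18.4%. The contrast chose the gene, so nothing is read from these counts. As a description, the higher side in the label of opposite directions is 210916_s_at alone, whose arrays were apart in untreated cells.

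**Figure D2:**
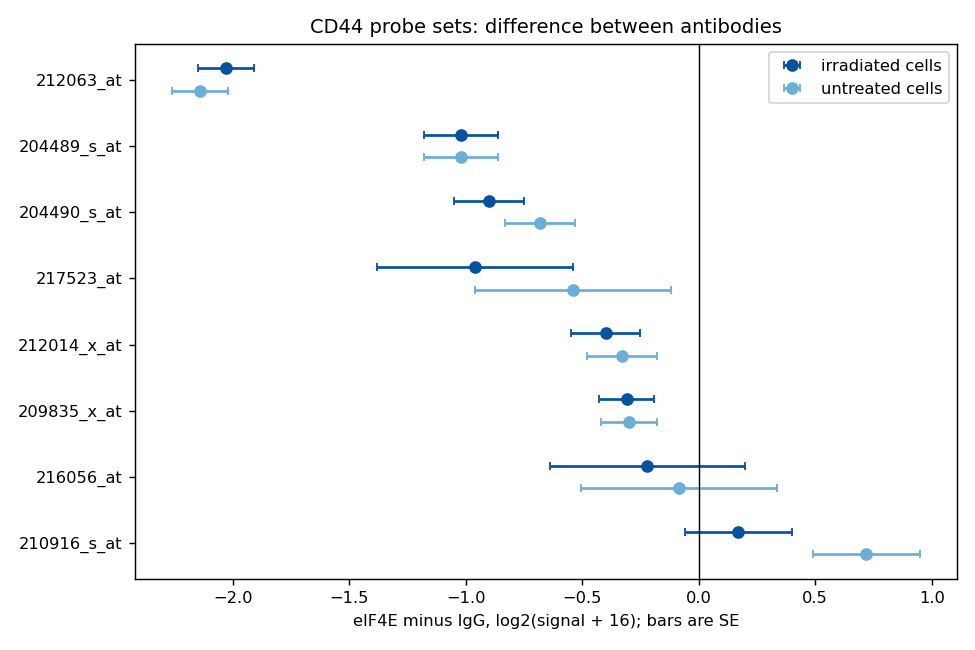
Difference of eIF4E minus IgG for each CD44 probe set, in log2(signal + 16), with SE bars from the fit, for irradiated cells above untreated cells (3 arrays against 3 each). Values run from -2.14 for 212063_at to 0.72 for 210916_s_at, both in untreated cells and relative to the array mean (scaled to hybridization controls, the bright ones are all above 0); 210916_s_at is 0.17 in irradiated cells.

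How far the probe sets stood apart was measured within arrays, where scaling cancels. The log2 ratio of 212063_at over 210916_s_at differed by -2.53, eIF4E minus IgG precipitates (SD of the ratio 0.14 in eIF4E and 0.53 in IgG, n = 6 arrays each), and the arrays did not overlap. The same difference was -2.21 in irradiated and -2.86 in untreated cells. Among the 6 bright probe sets, 11 of 15 pairs had ratios that did not overlap between antibodies, and the gaps ran from 0.061 to 2.53 with a median of 0.81. In the other 71 genes with at least 5 bright probe sets, 25.7% of 913 such pairs did not overlap. The contrast chose CD44, so nothing is read from its count. The smallest gap was between 212014_x_at and 209835_x_at, whose ratio overlapped, and 204489_s_at over 204490_s_at, with a gap of -0.23, overlapped too. The remaining overlapping pairs were 212014_x_at and 209835_x_at, each with 210916_s_at. Listed by their difference, the bright probe sets run from 212063_at through 204489_s_at and 204490_s_at, then both _x_at probe sets, to 210916_s_at. The ratios of 212063_at to each other bright probe set did not overlap, nor did those of 204489_s_at and 204490_s_at to the _x_at pair and to 210916_s_at.

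Directions are relative to the rest of each array. Scaled to the hybridization controls instead, all 6 bright probe sets were above 0, from 0.51 for 212063_at to 2.96 for 210916_s_at, in the same order and with 2.45 between these ends.

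A value for the gene depends on which probe set stands for it. The brightest probe set, 212063_at, gives -2.09, the mean of all 8 gives -0.63 ± 0.091 (SE), their median gives -0.56 and the mean of the 6 bright ones gives -0.69 (all log2, eIF4E minus IgG).

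Values on both sides of 0 were common among genes with many probe sets. Of 72 genes with at least 5 single-gene probe sets above the 40th percentile, 47 (65.3%) had both signs of eIF4E minus IgG. A gene was counted however near 0 its values lay, such as CALD1 at -1.39 to 0.022, and signs are relative to the array mean. The median distance between a gene's lowest and highest probe set was 1.13 (log2). CD44, at 2.53, ranked second in that distance. The wider range, 3.53, was that of PHLDA1, a pleckstrin homology-like domain protein, whose 5 probe sets ran from -0.90 to 2.64, and the next genes were IDS at 2.38, PICALM at 2.35 and TFPI at 2.15. These names were taken after their values were seen. IDS encodes a lysosomal sulfatase, PICALM a clathrin assembly protein and TFPI an inhibitor of coagulation. CD44 was chosen for such a spread, and its rank is a description.

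**Figure D3:**
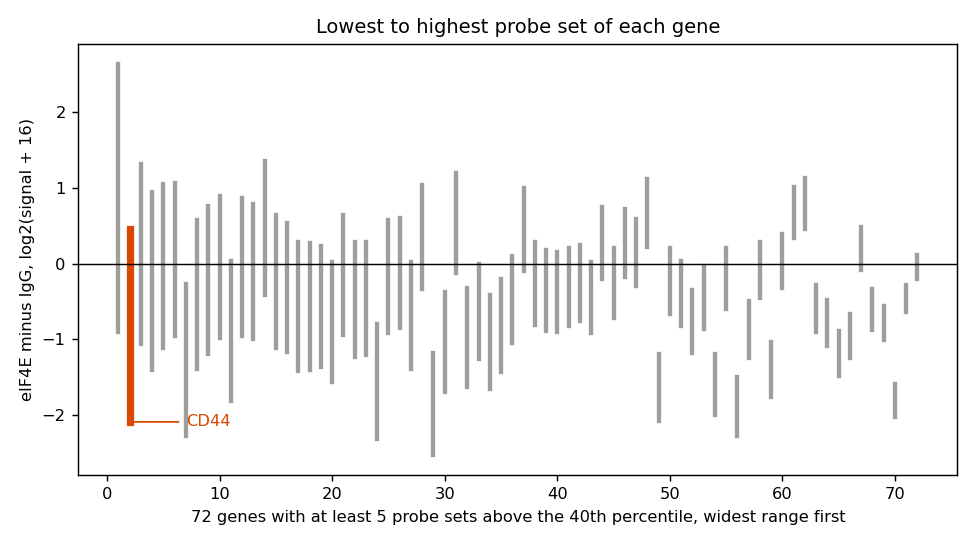
Lowest to highest probe set of eIF4E minus IgG, in log2(signal + 16), for each of 72 genes with at least 5 probe sets above the 40th percentile, ordered by range. CD44 (coloured) runs from -2.09 to 0.45 and is second widest. Bars of 47 genes cross 0, some of them barely, and all values are relative to the array mean.

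Measures of the arrays moved with the antibody as well. The actin 3′/5′ ratio, which compares probes near both ends of the beta-actin messenger RNA, was 1.33 to 1.53 on the eIF4E arrays and 2.96 to 5.38 on the IgG arrays. For GAPDH it was 1.13 to 1.31 on the eIF4E arrays and 2.03 to 2.78 on the IgG arrays. The probe set for Alu repeats read 13482 to 18476 on the eIF4E arrays and 36876 to 53246 on the IgG arrays. Each of the 3 measures was lower on all eIF4E arrays than on all IgG arrays (exact two-sided permutation test, p = 0.00216, the smallest that 6 against 6 arrays allow), by 2.95-fold, 1.92-fold and 2.70-fold in that order.

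Control probe sets of known position gave different values within 1 gene on these arrays. ACTB, which encodes beta-actin, had eIF4E minus IgG of 1.91 at its 5′ end, 0.97 in the middle and 0.36 at its 3′ end (log2). GAPDH, a glycolytic enzyme, had 0.36 at its 5′ end, 0.014 in the middle and -0.59 at its 3′ end. The part of position, of RNA breakage and of repeat-bearing RNA in the differences among CD44 probe sets was not tested, since positions of the CD44 probes are not given in the sources used here.

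Replicates repeated the CD44 signals to different degrees. The pooled SD within groups was 0.10 (log2) for 212063_at and for 209835_x_at, at percentiles 9.32 and 5.93 of probe sets of like signal, and 0.34 for 210916_s_at, at the 87.6th percentile. The other bright ones had 0.19 to 0.21, near the median of probe sets of like signal. Which replicate was highest differed between groups: replicate 1 was highest for 2 of the 8 probe sets in eIF4E precipitates of irradiated cells, 1 in eIF4E precipitates of untreated cells, 6 in IgG precipitates of irradiated cells and 4 in IgG precipitates of untreated cells, beside 36.1%, 36.3%, 35.7% and 35.8% of all probe sets in these groups. In the bioB to bioC ratio of the hybridization controls, replicate 1 of every group, at 0.369 to 0.459, stood above all other arrays, at 0.0351 to 0.0899. Between arrays of 1 group, Pearson's r of the log2 signals was 0.977 to 0.986 with eIF4E and 0.956 to 0.968 with IgG.

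Irradiation was not used to choose the gene, and each probe set was tested for it with limma across all probe sets (Benjamini-Hochberg, threshold 0.05). Of the 8 CD44 probe sets, 0 passed in the eIF4E precipitates, 0 in the IgG precipitates and 0 in the difference of both effects. The background was 0% called in each of these comparisons: at an unadjusted p under 0.05, 362, 1849 and 968 of 22215 probe sets passed in that order, and 0 after adjustment.

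In the eIF4E precipitates, irradiated minus untreated was between 0.019 and 0.12 (log2) for the bright probe sets other than 209835_x_at. For 212063_at it was 0.060 ± 0.12 (SE), with a 95% interval of -0.20 to 0.32. For 204489_s_at it was 0.019 ± 0.16, with an interval of -0.32 to 0.36, and for 204490_s_at 0.026 ± 0.15, with an interval of -0.29 to 0.35. These intervals bound, per probe set, how large a change these arrays leave possible. The probe set 212014_x_at had 0.12 ± 0.15 (-0.21 to 0.45), and 210916_s_at had 0.021 ± 0.23 (-0.48 to 0.52). In the dim probe sets the intervals were wider, -0.85 to 0.94 for 217523_at and -0.84 to 0.94 for 216056_at.

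The probe set 209835_x_at was the 1 member whose irradiated arrays all lay above its untreated arrays, with either antibody. Its difference was 0.23 ± 0.12 in the eIF4E precipitates (95% interval -0.019 to 0.48, limma, adjusted p = 1.000) and 0.24 ± 0.12 in the IgG precipitates (-0.009 to 0.49, adjusted p = 0.613). Among all probe sets, arrays were apart in the higher direction in 5.50% with eIF4E and 3.93% with IgG, and in the lower direction in 4.06% with eIF4E and 5.70% with IgG. No other CD44 probe set had irradiated and untreated arrays apart in either precipitate.

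In the IgG precipitates the highest value was that of 210916_s_at, at 0.56 ± 0.23 (95% interval 0.066 to 1.06, limma, adjusted p = 0.523), with overlapping arrays. Without replicate 2 of the untreated IgG precipitates, which read 257, it was 0.24. The other bright probe sets had -0.054 ± 0.12 for 212063_at, 0.015 ± 0.16 for 204489_s_at, 0.19 ± 0.15 for 212014_x_at and 0.25 ± 0.15 for 204490_s_at, with adjusted p-values in limma of 0.686 to 0.987.

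The irradiation effect in eIF4E minus that in IgG was -0.54 ± 0.33 for 210916_s_at (95% interval -1.24 to 0.16, limma, adjusted p = 0.999), and -0.22 without replicate 2 of the untreated IgG precipitates. It was 0.11 ± 0.18 for 212063_at (-0.26 to 0.49) and -0.22 ± 0.21 for 204490_s_at (-0.67 to 0.23). These are the same arrays that gave 210916_s_at its different eIF4E minus IgG values in irradiated and untreated cells, 0.17 and 0.72, and that difference did not pass the test.

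**Figure D4:**
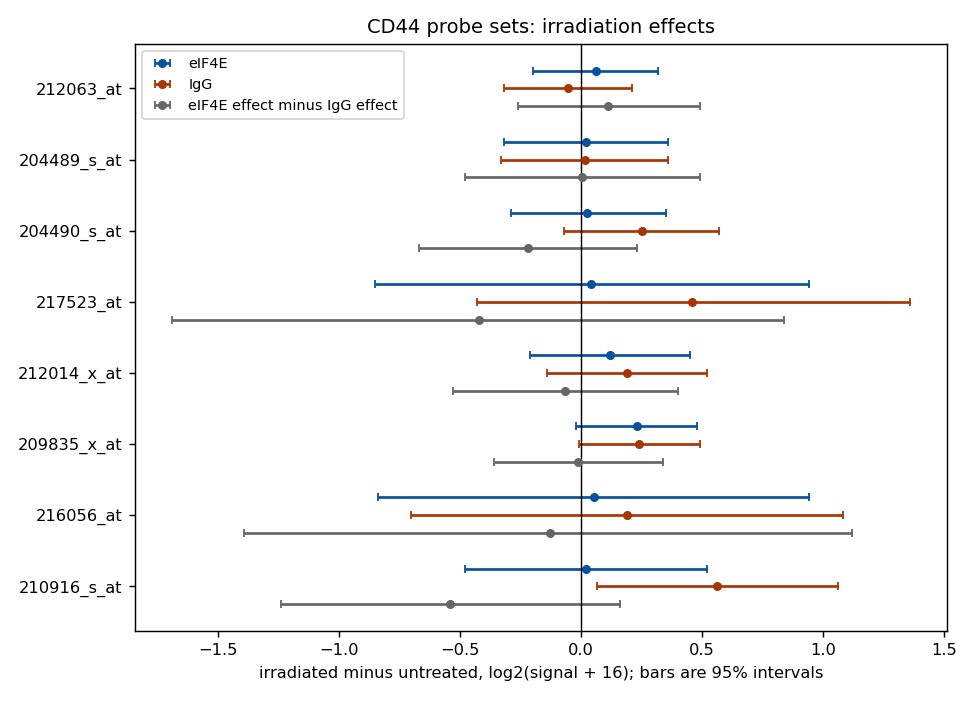
Irradiated minus untreated cells for each CD44 probe set, in log2(signal + 16), with 95% intervals from the fit, in eIF4E precipitates, in IgG precipitates and as the eIF4E effect minus the IgG effect. All intervals but that of 210916_s_at in IgG (0.066 to 1.06) include 0, and 0 of the 8 probe sets passed after adjustment.

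The genes most like each CD44 probe set over the 12 arrays were found by the root-mean-square difference of log2 profiles, each centred on its own mean, among 11853 bright probe sets of other single genes. The arrays share antibody, treatment and scaling, so a like difference between antibodies enters the likeness. Closest to 212063_at were ARIH1 (0.0927), which encodes a ubiquitin ligase, KLHDC10 (0.102), a substrate adaptor of ubiquitin ligases, and BCLAF1 (0.117), a nuclear protein bound to RNA processing factors. Their eIF4E minus IgG was -2.06, -2.00 and -2.07. Closest to 204489_s_at were NSD2 (0.124), a histone methyltransferase, STAT3 (0.125), a transcription factor described downstream of CD44, and ZNF518A (0.125), a zinc finger protein.

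Closest to 204490_s_at were SUPT7L (0.117), CHERP (0.118) and PLS3 (0.123), which encode a transcription coactivator subunit, a splicing-related protein and an actin bundler. Near 212014_x_at were GUSB (0.117), a lysosomal glucuronidase, APEX1 (0.117), a DNA repair endonuclease, and NAGPA (0.124), an enzyme of lysosomal targeting. Near 209835_x_at were CHPF2 (0.102), an enzyme of chondroitin synthesis, SNW1 (0.108), a splicing and transcription cofactor, and again APEX1 (0.114). The closest to 210916_s_at lay farther off: IGFBP3 (0.191), which binds insulin-like growth factors, PES1 (0.194), a factor of ribosome assembly, and CYTH2 (0.195), an exchange factor for ARF proteins.

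For the dim probe sets the nearest genes were no closer than 0.306: SEMA3A (0.344), ACVR1B (0.359) and ELK4 (0.371) for 217523_at, and EXTL3 (0.306), BAIAP2 (0.326) and ALDH3B1 (0.327) for 216056_at. SEMA3A is a guidance ligand, ACVR1B an activin receptor, ELK4 a transcription factor, EXTL3 an enzyme of heparan sulfate synthesis, BAIAP2 an adaptor at the actin cytoskeleton and ALDH3B1 an aldehyde dehydrogenase. Of the CD44 probe sets, the _x_at pair came nearest to each other. The pair 212014_x_at and 209835_x_at differed by 0.116, and 0 of the 11853 candidates were closer to 212014_x_at, while 4 were closer to 209835_x_at. Between 212063_at and 210916_s_at the difference was 1.31, and 8577 candidates were closer to 212063_at than 210916_s_at was.

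Other genes of CD44 biology were taken from 7 lists, 1 probe set a gene. Of 88 listed genes, 83 had a single-gene probe set and 16 of these lay under the 40th percentile. With eIF4E minus IgG tested by limma across all probe sets, 12 of the 83 passed as higher and 39 as lower, with a median of -0.40 (log2). Among all 11963 genes 19.5% passed as higher and 24.0% as lower, with a median of -0.094. A larger part of all genes was dim, 4033 of the 11963. Of the 7930 genes at or above the 40th percentile, 2243 passed as higher and 2637 as lower, with a median of -0.064. Of the 67 list genes there, 12 passed as higher and 36 as lower, with a median of -0.58. These shares are the background for the counts of each list below, and no list was tested as a set. Irradiation effects passed for 0 of the 83 in either precipitate. Scaling to the hybridization controls in place of the array mean turns 72 of the 83 to called higher and 0 to called lower, so each direction in this account of the lists is relative to the rest of the array, and every gene named as lower is above 0 on that other scale.

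Hyaluronan, the main ligand of CD44, is made at the plasma membrane and cut by hyaluronidases. Of 6 measured genes of its synthesis and turnover, 1 rose and 4 fell, with a median of -0.71. Of those that fell, HYAL3 was dim, and the arrays of HYAL3 and of CEMIP2 overlapped between antibodies. HYAL2, a hyaluronidase anchored at the cell surface, had means of 742 ± 42.3 and 784 ± 53.4 in eIF4E precipitates of irradiated and of untreated cells, against 315 ± 105 and 385 ± 88.2 in IgG precipitates of irradiated and of untreated cells (SD, n = 3 arrays each). It rose by 1.13 ± 0.16 (log2, SE; limma, adjusted p = 1.85e-05), with no overlap. CEMIP, which binds and helps break down hyaluronan, fell by 1.38 on the log2 scale (SE 0.28, limma adjusted p = 8.30e-04), and UGDH, which makes a sugar precursor of hyaluronan, fell by 0.59 (SE 0.093, adjusted p = 7.60e-05).

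Of 10 other hyaluronan receptors and binders, 0 rose and 3 fell, with a median of -0.17, and 7 of the 10 were dim. Among all genes 24.0% passed as lower. Of the 3 that fell, HMMR alone was bright, and the arrays of the others overlapped between antibodies. HMMR, an intracellular and surface hyaluronan-binding protein of the spindle, fell by 1.00 (SE 0.15, limma adjusted p = 4.72e-05).

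Among 13 other ligands and surface partners, 3 rose and 5 fell, with a median of -0.10. These counts lie near the shares among all bright genes, 2243 higher and 2637 lower of 7930. FN1, among those that fell, had overlapping arrays. MIF, a cytokine whose receptor is formed by CD74 with CD44, read 9988 to 11727 on the eIF4E arrays, against 2479 to 5624 on the IgG arrays, and rose by 1.59 ± 0.15 (log2, SE; limma adjusted p = 4.71e-07). CD74 itself read 1136 to 1618 on the eIF4E arrays, against 464 to 699 on the IgG arrays, and rose by 1.36 ± 0.13 (adjusted p = 3.92e-07). Neither gene's arrays overlapped between antibodies. SLC7A11, the cystine transporter that CD44 variant protein is described to stabilise, fell by 1.70 (SE 0.20, limma adjusted p = 4.15e-06), and COL4A1, a basement membrane collagen, fell by 1.63 (SE 0.26, adjusted p = 8.49e-05).

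Of 9 linkers between CD44 and the cytoskeleton, 1 rose and 7 fell, and their median was -1.01. Of those that fell, ANK1 had overlapping arrays. IQGAP1, a scaffold that binds actin, read 546 to 924 on the eIF4E arrays, against 1535 to 3773 on the IgG arrays, and fell by 1.53 (SE 0.16, limma adjusted p = 1.30e-06). RDX, or radixin, fell by 1.28 (SE 0.13, adjusted p = 1.09e-06). The 1 that rose, NHERF1, an adaptor that binds ezrin, had overlapping arrays and 0.74 ± 0.13 (adjusted p = 2.67e-04), and is named because it was alone.

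Of 12 sheddases, gamma-secretase parts and inhibitors, 4 rose and 2 fell, with a median of 0.22. ADAM17 and ADAM10, metalloproteinases that shed CD44, fell by 1.42 (SE 0.11, limma adjusted p = 3.57e-08) and by 1.30 (SE 0.095, adjusted p = 2.82e-08). TIMP3 and TIMP1, inhibitors of metalloproteinases, rose by 1.37 ± 0.12 (adjusted p = 2.28e-07) and 1.05 ± 0.13 (adjusted p = 7.04e-06). TIMP3 shows the same split as CD44: its 4 bright probe sets ran from -0.73 to 1.37, and their mean, 0.070, did not pass (adjusted p = 0.586). For ADAM10 the 3 bright probe sets ran from -1.30 to -0.021, and their mean passed. The other named list genes with several bright probe sets, such as SLC7A11 with -2.36 to -0.29, kept 1 sign.

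Of 16 splicing factors described for CD44 variant exons, 2 rose and 11 fell, with a median of -0.84. Of the 2 that rose, SRSF10 had overlapping arrays. CELF1, a regulator of splicing and RNA decay, read 1182 to 1701 on the eIF4E arrays, against 5665 to 7476 on the IgG arrays, and fell by 2.20 (SE 0.093, limma adjusted p = 4.58e-10). Its 4 bright probe sets ran from -2.20 to -0.23. SRRM1, a splicing coactivator, fell by 1.95 (SE 0.13, adjusted p = 1.09e-08). TRA2A, a splicing enhancer protein, rose by 0.90 ± 0.086 (adjusted p = 4.27e-07), but the mean of its 3 probe sets was 0.007 (adjusted p = 0.980), and 1 of the 3 was bright. ESRP1, the epithelial factor that keeps CD44 variant exons, was dim in these precipitates, at percentile 5.62.

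Of 17 signalling genes below CD44, 1 rose and 7 fell, with a median of -0.44. Of those that fell, LYN and PTK2 had overlapping arrays. RHOC, a GTPase of cell movement, read 4900.3 to 6258 on the eIF4E arrays, against 1174 to 1763 on the IgG arrays, and rose by 1.99 ± 0.10 (log2, SE; limma adjusted p = 1.66e-09). Its effector kinases ROCK2 and ROCK1 fell by 1.70 (SE 0.11, adjusted p = 1.13e-08) and by 1.57 (SE 0.084, adjusted p = 2.16e-09).

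**Figure D5:**
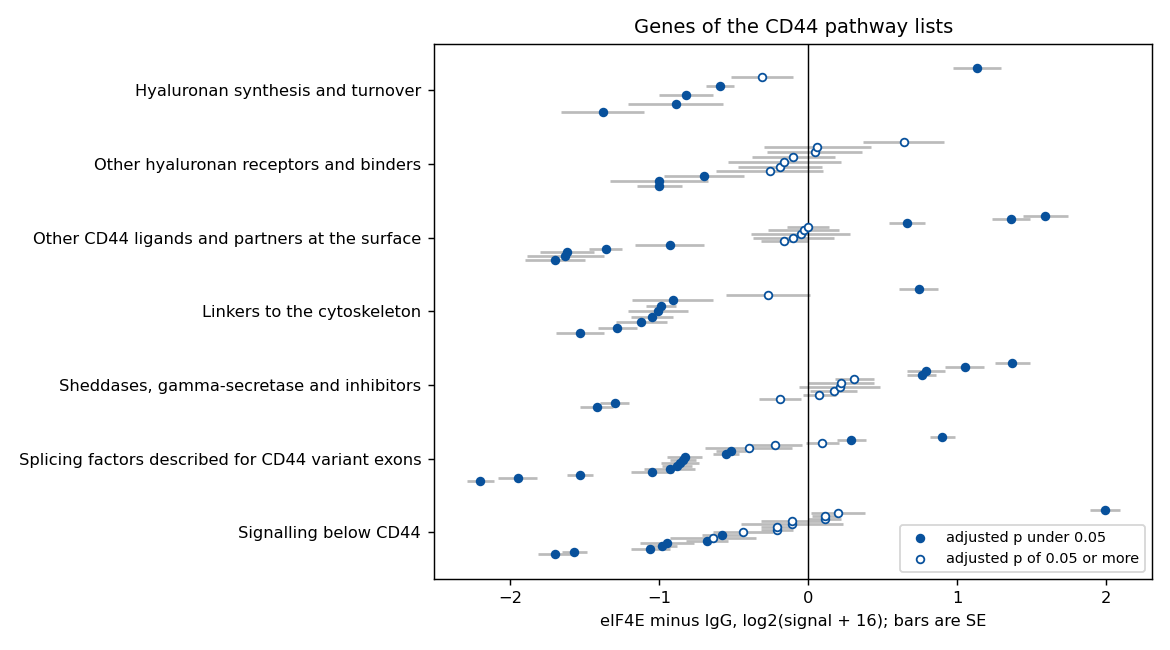
Difference of eIF4E minus IgG in log2(signal + 16), with SE bars, for each of the 83 measured genes of 7 CD44 lists, 1 probe set a gene. Filled points passed the threshold in limma: 12 lie right of 0 (RHOC at 1.99) and 39 lie left of it (CELF1 at -2.20), all relative to the array mean; scaled to hybridization controls, 72 pass as higher and 0 as lower.

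The line's markers were mostly as its label has it. VIM, CAV1 and AXL, genes of mesenchymal cells, stood at percentiles 99.3, 99.4 and 98.2 of signal, while CDH1 and ESRP1, of epithelial cells, and PGR, the progesterone receptor, stood at 23.8, 5.62 and 1.53. ESR1, the oestrogen receptor, was at 39.8, and ERBB2, a growth factor receptor that is not amplified in this line, at 68.1. Of the 13 markers of other cell types, 1 passed between antibodies: GFAP, a glial filament gene, with signals of 1.62 to 55.8, rose by 1.14 ± 0.29 (limma adjusted p = 0.00507), and its part in the CD44 values was not tested. CD24, the surface protein read with CD44 in the stem-like pattern, was dim at percentile 23.1, with -0.50 ± 0.24 (limma adjusted p = 0.113). Without replicate 3 of the eIF4E precipitates of irradiated cells CD24 had -0.64 and passed (adjusted p = 0.0470), and with a pseudocount of 1 it had -1.11 and did not (adjusted p = 0.130). Over all alternatives its adjusted p in limma ran from 0.0324, scaled to the hybridization controls, where its sign turned, to 0.358. VIM, which encodes vimentin, fell by 1.02 (SE 0.15, limma adjusted p = 3.27e-05).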

How the data were processed

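RNA of 12 precipitates was hybridised to 1 Affymetrix array each, and titles gave each array's group and number. The deposited table holds an intensity per probe set, made by the authors with MAS5 per the submitters' processing notes, which give no version. The design text calls the 3 arrays of a group biological replicates. No 2 arrays were identical.

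Of 22277 probe sets, 62 were controls. The platform annotation gave 1 gene to 19064 probe sets, several to 1043 and none to 2108; 19052 symbols were brought up to date with a RefSeq table (GRCh38.p14), used for names alone because no build is given for the array. Without a filter on dim signals, log2(signal + 16) of all 22215 other probe sets went into limma 3.58.1 under R 4.3.3, as 4 group means with a trended eBayes step, and p-values were adjusted with Benjamini-Hochberg at 0.05. Differences on this scale understate changes of dim probe sets. The number of arrays limits the precision. For lists, a gene's brightest probe set was used, _x_at only where alone. Of the array's control genes with probe sets at several positions, 1 is not reported here. Permutation tests used scipy 1.17.1 and figures matplotlib 3.10.9.

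CD44, its probe sets and the lists were chosen with earlier results of these data known. Named genes are the 3 nearest profiles per CD44 probe set, up to 2 genes at either end of each list that passed without overlap, CD24 and VIM. To see whether replicate numbers pair the arrays, deviations from group means were correlated. Irradiated and untreated eIF4E arrays of 1 number gave r of 0.295, 0.173 and 0.106, and IgG arrays 0.186, -0.017 and 0.105. Across antibodies, eIF4E and IgG arrays of 1 number gave 0.229, 0.139 and 0.042 in irradiated cells and 0.196, 0.094 and 0.012 in untreated cells. Arrays of different numbers were not compared in this way, so these values do not settle whether the numbers pair the arrays. Replicate 1 of every group stood apart in the bioB to bioC ratio, as given above. The labels name no shared culture. A replicate block, other scalings, filters and pseudocounts, and leaving out arrays were the alternatives.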

Additional observations from a re-analysis of the deposited data

How the results depend on the processing

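Of 25 alternative settings, 12 left out 1 array. The gap between 210916_s_at and 212063_at stayed within 2.36 to 2.64, hybridization control scaling included (2.45). That scaling moved the median of the bright probe sets by 2.45 and turned eIF4E minus IgG to 0.51 for 212063_at, 1.57 for 204489_s_at, 1.79 for 204490_s_at, 2.22 for 212014_x_at, 2.29 for 209835_x_at and 0.88 for 216056_at, with 2.96 for 210916_s_at and -0.067 for 217523_at, and 72 list genes higher and 0 lower; the amounts of those controls in each array are not known here. It also turned CEMIP to 1.17, UGDH to 1.96, HMMR to 1.52, SLC7A11 to 0.83, COL4A1 to 0.80, IQGAP1 to 1.04, RDX to 1.31, ADAM17 to 1.10, ADAM10 to 1.30, CELF1 to 0.39, SRRM1 to 0.63, ROCK2 to 0.85, ROCK1 to 1.01, VIM to 1.59 and CD24 to 0.68. Of these, CELF1, SRRM1, COL4A1, SLC7A11 and ROCK2 did not pass on that scale (limma, adjusted p = 0.440, 0.206, 0.117, 0.0963 and 0.0889 in that order). Quantile normalization and median centring each moved the median by 0.10 and kept all 8 signs. With pseudocount 1, 217523_at was -1.79. Array weights gave 216056_at 0.10, and leaving out replicate 1 of every group gave it 0.33. The cause of these changes was not tested.

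Irradiation called 0 CD44 probe sets under any setting. Over all probe sets in IgG it called 4 without the trend, 1 with pseudocount 1 and 0 to 2 without 1 array (2 without untreated IgG replicate 3, 1 without replicate 1). With the replicate block 0 probe sets passed for irradiation in eIF4E, IgG or their difference, as without it, and 13 list genes passed as higher and 40 as lower between antibodies, against 12 and 39 without it. Signs of small irradiation effects, none past the threshold, turned as follows. In eIF4E, hybridization scaling gave -0.076 for 212063_at, -0.12 for 204489_s_at, -0.11 for 204490_s_at, -0.016 for 212014_x_at, -0.019 for 216056_at and -0.12 for 210916_s_at, which was -0.009 with array weights and -0.11 without replicate 1 of every group. In IgG, centring gave 0.010 for 212063_at, and 204489_s_at had -0.068 with weights, -0.029 with hybridization scaling and -0.15 without replicate 1 of every group. In the difference, 204489_s_at had -0.088 with hybridization scaling and -0.067 with centring, and 212014_x_at 0.015 with weights and 0.068 without replicate 1 of every group.

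Leaving out 1 array at a time gave, in eIF4E, -0.022 to 0.086 for 204489_s_at, -0.093 to 0.11 for 204490_s_at, -0.063 to 0.11 for 217523_at, -0.32 to 0.36 for 216056_at and -0.093 to 0.10 for 210916_s_at. In IgG it gave -0.11 to 0.006 for 212063_at, -0.19 to 0.19 for 204489_s_at and -0.11 to 0.57 for 216056_at. In the difference it gave -0.17 to 0.21 for 204489_s_at, -0.21 to 0.078 for 212014_x_at, -0.094 to 0.046 for 209835_x_at and -0.51 to 0.17 for 216056_at. On most arrays 217523_at and 216056_at lay within or below the signals of genes this line should lack, and their directions are not readable.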
